A study of Mus musculus with 9 samples.

Results

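Collagens are secreted proteins built from chains that wind around each other in a triple helix, and each chain is the product of its own gene. Fibrillar collagens form the ropes of tendon and of the connective tissue around muscle, type IV collagen forms the sheet of the basement membrane that wraps every muscle fibre and capillary, and type VI collagen forms beaded filaments that link the sheet to the fibrils. In skeletal muscle most of these chains are made by fibroblasts and other interstitial cells rather than by the fibres. The collagen genes described here are the rows of the count table whose symbol is Col, a number, the letter a and a second number, and there were 43 of them among 23284 genes. They comprised 11 fibrillar chains, 9 chains of the basement membrane and its surroundings (type IV, the multiplexins Col15a1 and Col18a1, and the anchoring fibril chain Col7a1) and 23 of other types. The other types were 6 chains of type VI, 9 of the fibril-associated (FACIT) types, 4 transmembrane collagens, 3 short-chain collagens and Col28a1.

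Transcripts were sequenced from the gastrocnemius, a calf muscle, of mice aged 3 months on a 129/C57/BL6 background, taken after exercise. The 5 control libraries were from mice whose Gprc6a gene, which codes for an amino acid-sensing receptor, was flanked by loxP sites (fl/fl; the genotype field spells it Grpc6afl/fl). The 4 knockout libraries were from mice with the same floxed gene plus Mck-Cre, a recombinase driven by the muscle creatine kinase promoter and so active in muscle fibres, not in the fibroblasts that make most collagen. No mice with Cre alone and no unexercised mice were among the samples, so effects of Cre and of the deletion cannot be told apart. Nothing in the labels says whether each library was a separate animal, and a p-value here reflects only how these libraries vary, which may be technical.

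Total counts ranged from 19522947 to 25608659 per library, and a count of 0 allows at most 0.116 to 0.159 CPM (counts per 1000000 counts, with library totals scaled by TMM), counting error only. Not one count fell on Gprc6a in any of the 9 libraries, so the table does not check the knockout labels, and the knockout titles name Gprc5a where the genotypes name Gprc6a. Muscle fibre markers summed to between 158700 and 218100 CPM in every library. Some libraries stood apart in ways that touch the collagens. The sum of 8 keratinocyte markers was 206 CPM in control 2, 131 in knockout 2 and 53.7 in knockout 1, against 13.2 to 19.8 in the other 6. Adipocyte markers were highest in controls 4 and 5 (2281 and 1709 CPM, against 513 to 832 elsewhere). Control 5 and knockouts 3 and 4 were skewed to short transcripts, with slopes of -0.16, -0.17 and -0.08 (log2 level per doubling of transcript length), against -0.01 to 0.20 in the others. In whole muscle, fewer cells of a type and less RNA per cell cannot be told apart.

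The regions just upstream of 4 fibrillar genes are shown because these genes carry the largest levels or the smallest p-values below. They are from RefSeq (GRCm38.p6, a later build than the mm9 used by the authors), windows from 250 bases before the annotated start to 50 after it, on the strand of the gene. Capitals mark the CCAAT box, the GC box GGGCGG and the TATA-like TATAAA, searched on both strands.
Col1a2, chr6:4505368-4505667, plus strand: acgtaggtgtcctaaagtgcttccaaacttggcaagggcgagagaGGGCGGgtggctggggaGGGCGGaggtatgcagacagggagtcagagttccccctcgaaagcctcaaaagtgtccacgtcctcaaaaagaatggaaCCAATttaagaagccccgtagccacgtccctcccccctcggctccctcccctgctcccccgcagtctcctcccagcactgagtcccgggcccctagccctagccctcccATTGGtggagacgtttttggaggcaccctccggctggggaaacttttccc
Col3a1, chr1:45311288-45311587, plus strand: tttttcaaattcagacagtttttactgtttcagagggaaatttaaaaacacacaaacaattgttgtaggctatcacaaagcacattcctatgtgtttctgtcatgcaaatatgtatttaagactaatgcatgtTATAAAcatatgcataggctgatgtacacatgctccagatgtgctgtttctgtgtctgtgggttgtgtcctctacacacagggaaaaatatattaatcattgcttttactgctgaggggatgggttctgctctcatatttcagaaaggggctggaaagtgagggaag
Col5a1, chr2:27886175-27886474, plus strand: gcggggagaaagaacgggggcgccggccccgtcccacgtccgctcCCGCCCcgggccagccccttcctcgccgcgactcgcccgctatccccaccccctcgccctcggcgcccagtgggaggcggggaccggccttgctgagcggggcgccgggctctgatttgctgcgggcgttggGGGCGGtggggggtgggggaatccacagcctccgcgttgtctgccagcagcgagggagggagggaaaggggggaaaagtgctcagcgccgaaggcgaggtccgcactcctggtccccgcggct
Col5a3, chr9:20815018-20815317, minus strand: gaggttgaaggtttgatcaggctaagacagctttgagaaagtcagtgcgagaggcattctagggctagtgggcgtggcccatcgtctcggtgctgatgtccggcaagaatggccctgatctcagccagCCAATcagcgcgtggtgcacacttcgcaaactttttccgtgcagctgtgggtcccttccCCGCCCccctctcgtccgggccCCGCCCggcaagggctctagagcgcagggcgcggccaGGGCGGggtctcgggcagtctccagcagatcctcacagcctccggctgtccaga
The windows of Col1a2 and Col5a3 held both CCAAT and GGGCGG, that of Col5a1 held GGGCGG only, and that of Col3a1 held TATAAA only, 117 bases before the start. The table had 38 windows for 35 of the 43 genes, with none for Col1a1, Col2a1, Col4a3, Col5a2, Col9a3, Col12a1, Col14a1 and Col22a1. GGGCGG stood in 23 of the 38 (60.5%, against 35.7% of all 32851 windows), CCAAT in 13 (34.2% against 37.4%) and TATAAA in 5 (13.2% against 13.6%). Col4a1 and Col4a2 neighbour each other on chromosome 8 and are read away from each other, with annotated starts 21 bases apart and first exons that overlap, so that unstranded reads there could not be assigned.

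In these muscles the collagen message was dominated by type I and type III chains. Per kilobase of transcript, the mean level over all 9 libraries was highest for Col1a2 (166 CPM per kb) and Col1a1 (120 CPM per kb), the 2 chains of type I collagen, the main fibril of tendon and connective tissue. Col3a1, the single chain of type III collagen, followed at 61.9 CPM per kb. Next came Col6a1 (37.1), Col4a1 (30.1), Col6a2 (29.7) and Col4a2 (24.7 CPM per kb), then a step down to Col15a1 at 11.6 CPM per kb and to Col5a1, Col5a3, Col6a3 and Col5a2 between 7.39 and 8.19 CPM per kb. The last 4 lay closer to each other than their spread within either group, as did Col4a1 and Col6a2. This order rests on the longest annotated transcript of each gene and turns with that choice. Per kilobase of the median transcript, Col1a1 came first at 1662 CPM per kb, followed by Col3a1 at 467, Col1a2 at 436 and Col4a1 at 308 CPM per kb.

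**Figure D1:**
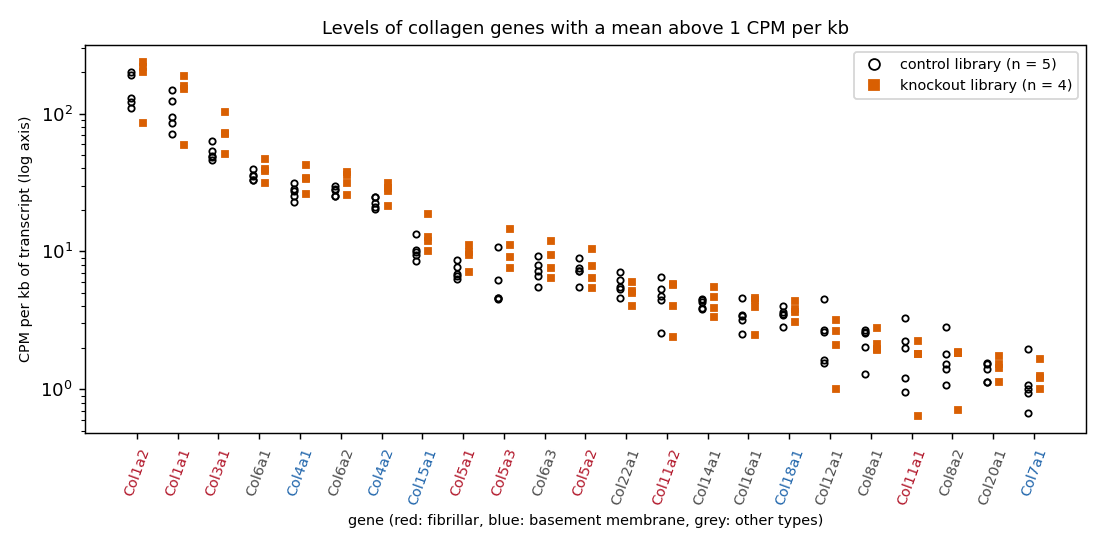
Levels in CPM per kb of the longest transcript, on a log axis, of the collagen genes with a mean above 1 CPM per kb, with one point per library (open circles: 5 controls; orange squares: 4 knockouts). Type I chains lead at 166 and 120 CPM per kb, and control and knockout points overlap for each gene.

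Between knockout and control muscle no collagen gene passed the test. By edgeR's quasi-likelihood test with Benjamini-Hochberg adjustment over all 13198 tested genes, 0 of the 39 collagen genes that passed the count filter were called higher and 0 lower, where the share called among all genes was 0% in each direction. At an unadjusted p under 0.05, 4 collagen genes were higher (10.3%, against 1.38% of all tested genes) and 0 lower (against 1.8%). The 4 were Col3a1, Col5a1, Col5a3 and Col4a1. DESeq2 also called 0 collagen genes (0% of all genes higher and 0.053% lower), with 6 higher and 0 lower at an unadjusted p under 0.05 (1.44% and 2.05% of all genes), and limma-voom called 0, with 7 and 0 (2.4% and 2.76%). Log2 fold changes (knockout minus control) were above 0 for 25 of the 39 genes, or 64.1%, against 49.4% of all tested genes, with a median of 0.09 beside -0.0023 for all genes. The other 14 were below 0 (50.6% of all tested genes). With limma-voom 21 were above 0 and 18 below (50.4% and 49.6% of all genes).

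Those counts depended on knockout 2. Without that library, 0 collagen genes were higher and 1, Col24a1, was lower at an unadjusted p under 0.05 (1.24% and 2.52% of all genes), fold changes were above 0 for 20 of 40 and below 0 for 20 (49.5% and 50.5% of all genes), and the median was -0.02. With knockout 2 included, that library held the highest level of 18 of the 39 genes, or 46.2%, where it was highest for 8.19% of all tested genes. Knockout 4 held the lowest level of 12 (30.8%, against 8.98% of all genes) and control 5 of 9 (23.1% against 15%). Knockout libraries therefore lay at both ends of the range. No collagen gene separated the groups completely: knockouts lay above every control for 0 of 39 (0.439% of all genes) and below every control for 0 (0.371%). Without knockout 2 these counts were again 0 and 0 (1.17% and 1.23%).

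**Figure D2:**
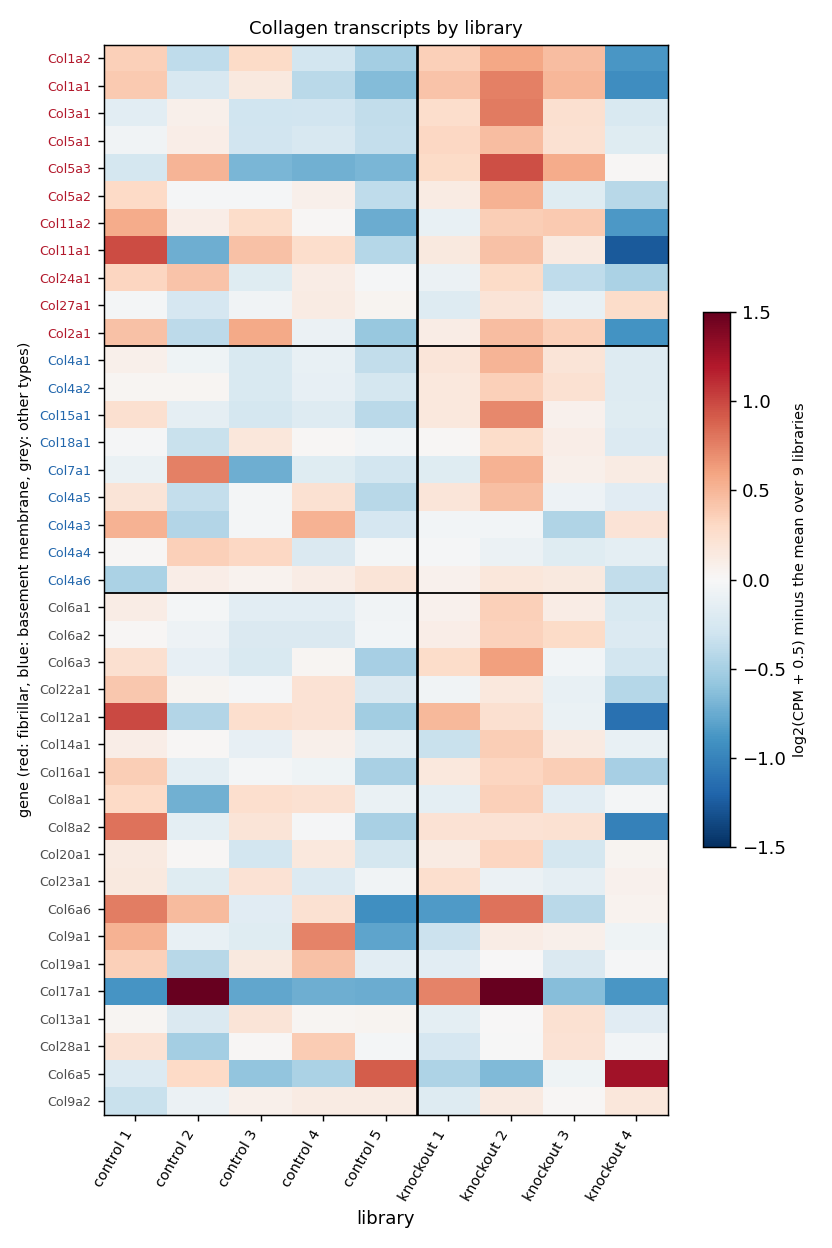
Level of each of the 39 tested collagen genes in each library, as log2(CPM + 0.5) minus the mean over the 9 libraries, with genes grouped by class and libraries by group; colours saturate at 1.5, which Col17a1 exceeds. Knockout 2 is red in most rows of all 3 classes, and knockout 4 and control 5 are blue in most of the fibrillar rows.

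The left-out libraries moved the counts in other ways too. Without knockout 4, collagen genes at an unadjusted p under 0.05 numbered 10 higher and 0 lower, against 1.56% and 1.45% of all genes. They were 7 and 0 without control 1 (1.06% and 1.71% of all genes), 7 and 0 without control 2 (2.41% and 3.3%), and 0 and 0 without controls 4 and 5 (1.23% and 1.7%). When control 2 was left out with knockouts 1 and 2, the libraries with most keratinocyte transcripts, they were 1 and 1 (3.4% and 6.34% of all genes). In that fit the median log2 fold change of the collagens was -0.07, and 16 of 40 were above 0, against 49.8% of all genes. When control 5 was left out with knockouts 3 and 4, the libraries poor in long transcripts, they were 8 and 0 (1.11% and 0.819% of all genes), and with each library's length slope as a covariate 9 and 0 (1.86% and 2.33%). In none of these fits did a collagen gene pass after adjustment.

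Among the 11 fibrillar chains, 8 had log2 fold changes above 0 and the class median was 0.10, or 0.03 without knockout 2 (6 of 11 above 0), 0.30 without knockout 4 (10 of 11), 0.25 without control 3 (8 of 11) and 0.18 without control 1 (10 of 11). The medians of 0.10 and 0.03 were the values of Col27a1, a scarce chain with a mean of 2.52 CPM. Without knockout 2 the members ran from -0.49 (Col24a1) to 0.59 (Col5a3). Col1a1 stood at 875, 562, 735, 503 and 422 CPM in controls 1, 2, 3, 4 and 5 and at 895, 1119, 942 and 349 CPM in knockouts 1 to 4. Its partner chain Col1a2 stood at 1081, 646, 1024, 693 and 592 CPM in controls and at 1074, 1262, 1161 and 457 CPM in knockouts. For both, knockout 2 was the highest library and knockout 4 the lowest, below every control. The log2 fold changes were 0.42 (SE 0.30) for Col1a1 and 0.29 (SE 0.28) for Col1a2, and in both the groups overlapped (619 ± 184 CPM, SD, n = 5, against 826 ± 332 CPM, n = 4, for Col1a1). Without knockout 2 they were 0.23 and 0.15.

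Col3a1, whose protein forms thin fibrils together with type I collagen, was more even in controls, at 298, 350, 270, 273 and 257 CPM, and stood at 400, 573, 393 and 284 CPM in knockouts. Knockouts 1, 2 and 3 lay above every control, and knockout 4 within the control range. The log2 fold change was 0.51 (SE 0.17, edgeR adjusted p = 0.967), and 0.31 (SE 0.14, edgeR adjusted p = 0.8445) without knockout 2. The ratio of Col3a1 to Col1a1 counts was 0.34, 0.62, 0.37, 0.54 and 0.61 in controls and 0.45, 0.51, 0.42 and 0.81 in knockouts, so the 2 chains did not move in step between libraries of a group. A 1.67% share of the 50-base words of Col3a1 also stands in the predicted gene Gm47302.

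Type V collagen sits in the core of type I fibrils and sets their width. Its main chain Col5a1 stood at 65.3, 72.6, 55.3, 57.3 and 52.9 CPM in controls and at 83.9, 93.7, 79.5 and 59.4 CPM in knockouts, again with knockouts 1 to 3 above every control, and its log2 fold change was 0.38 (SE 0.14; 0.29 without knockout 2). Col5a2, the usual partner of Col5a1, stood at 58.9, 47.5, 47.4, 50.4 and 36.8 CPM against 52.1, 69.1, 42.4 and 35.7 CPM. Its groups overlapped widely and its log2 fold change was 0.05 (SE 0.18), or -0.15 without knockout 2. Col5a3, a rarer type V chain, had the largest fold change among the fibrillar chains, at 38.0, 65.4, 28.2, 27.4 and 28.3 CPM in controls and 55.9, 89.8, 67.6 and 46.1 CPM in knockouts. Each knockout lay above each control except control 2, which exceeded knockouts 1 and 4. Its log2 fold change was 0.79 (SE 0.28, edgeR adjusted p = 0.967), 0.59 without knockout 2, 1.09 without control 2 and 0.58 without controls 4 and 5. Without control 2 and knockouts 1 and 2 it was 0.90. Control 2 and knockout 2 were also the libraries richest in keratinocyte markers, whose part in the level of Col5a3 was not tested, and the ratio of Col5a3 to Col5a1 counts was highest in the same libraries (0.90 and 0.96, against 0.48 to 0.85 in the others).

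The fibrillar chains best known from cartilage, Col2a1, Col11a1 and Col11a2, varied widely inside each group. Col11a2 stood at 39.4, 28.6, 32.2, 26.8 and 15.6 CPM in controls and at 24.4, 34.4, 34.9 and 14.4 CPM in knockouts (log2 fold change -0.07, SE 0.28; 0.07 without control 1, 0.13 without knockout 4 and 0.10 with the length slope as covariate). Col11a1 ranged from 4.93 CPM in knockout 4 to 25.2 CPM in control 1, and Col2a1, the chain of cartilage fibrils, from 0.848 to 3.22 CPM. Of 10 cartilage and bone markers, Matn1 had 0 counts in every library, Acan was at 0.181 CPM or less, and the list's sum of 42.0 to 110 CPM was mostly Comp, which tendon also makes. Knockout 4 was lowest for all 3 chains and for that sum. Of the minor fibrillar chains, Col24a1 stood at 6.71, 7.24, 4.58, 5.71 and 5.18 CPM in controls and 4.92, 6.52, 3.93 and 3.66 CPM in knockouts (log2 fold change -0.30, SE 0.20; -0.49, SE 0.19, without knockout 2), with knockouts 3 and 4 below every control, and Col27a1 lay between 2.02 and 3.13 CPM.

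**Figure D3:**
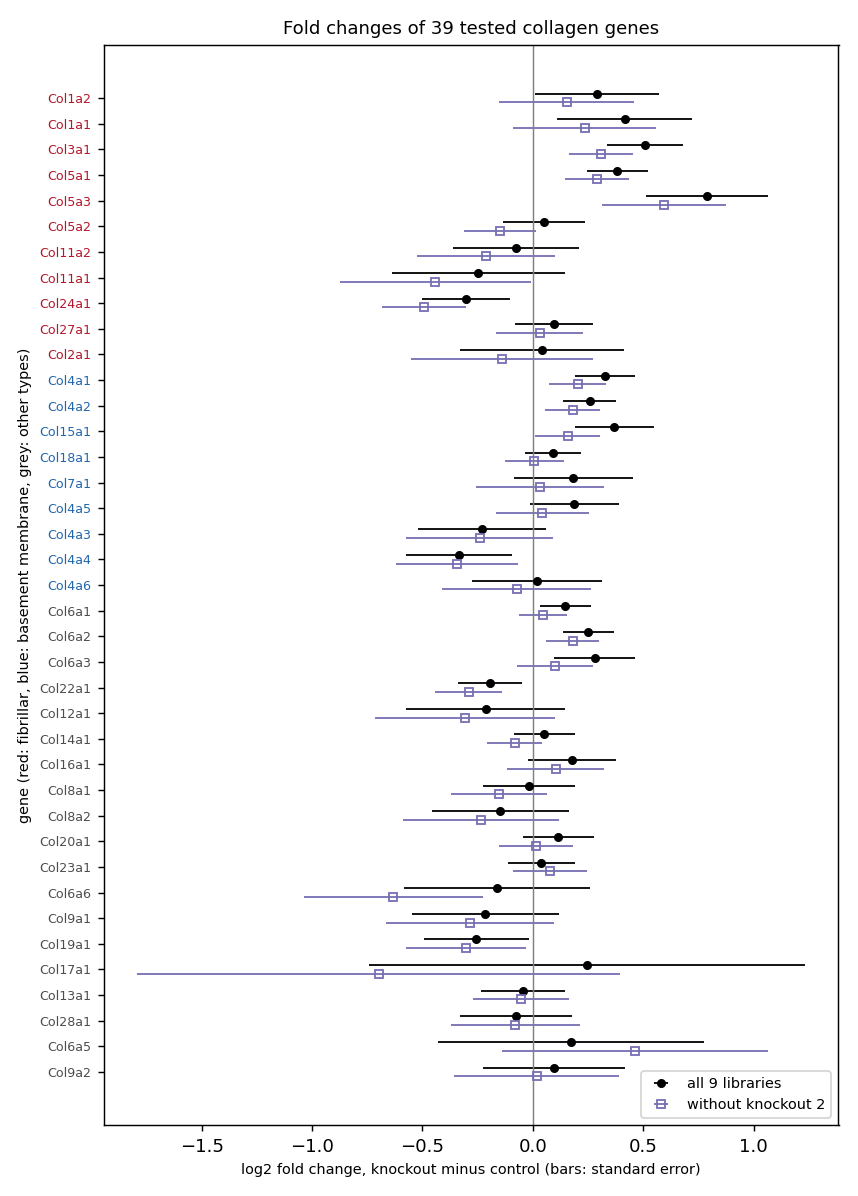
Log2 fold change (knockout minus control, edgeR) of the 39 tested collagen genes with its standard error, for all 9 libraries (filled) and without knockout 2 (open squares). For most genes the open symbol lies to the left of the filled one, and Col3a1 moves from 0.51 to 0.31.

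In the basement membrane class, 7 of 9 chains had fold changes above 0 and the median was 0.18, or 0.03 without knockout 2 (6 of 9). Both medians were the values of Col7a1, described with Col17a1 below. Without knockout 2, Col4a1, Col4a2 and Col15a1 stayed at 0.20, 0.18 and 0.16, and Col4a6, Col4a3 and Col4a4 were at -0.07, -0.24 and -0.34. Col4a1 and Col4a2, the chains of the type IV network found in nearly every basement membrane, were the most abundant of the class per kilobase. Col4a1 stood at 206, 188, 168, 182 and 152 CPM in controls and at 223, 279, 225 and 172 CPM in knockouts, and Col4a2 at 161, 161, 135, 145 and 132 CPM against 176, 203, 186 and 138 CPM. For both, knockouts 1 to 3 lay above every control and knockout 4 inside the control range. The log2 fold changes were 0.33 (SE 0.14) and 0.26 (SE 0.12), and 0.20 and 0.18 without knockout 2. The ratio of Col4a2 to Col4a1 counts stayed between 0.73 and 0.87 in all 9 libraries.

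The other type IV chains, which replace the common network in kidney, testis and some other tissues, were at low levels. Col4a5 lay between 3.24 and 6.31 CPM. Col4a3 stood at 2.90, 1.25, 1.82, 2.90 and 1.495 CPM in controls 1 to 5 against 1.81, 1.81, 1.23 and 2.23 CPM in knockouts 1 to 4 (log2 fold change -0.23, SE 0.29). Col4a4 stood at 0.952, 1.33, 1.28, 0.726 and 0.897 CPM against 0.907, 0.842, 0.758 and 0.795 CPM (-0.33, SE 0.24). Every knockout was inside the control range for Col4a4, and only knockout 3 was below it for Col4a3. Col4a6 lay between 0.408 and 0.947 CPM. Col15a1, a multiplexin of muscle and capillary basement membranes whose loss causes a mild myopathy in mice, stood at 69.0, 53.3, 48.8, 51.1 and 44.1 CPM in controls and at 65.4, 96.9, 61.2 and 51.7 CPM in knockouts. Only knockout 2 lay above all controls, and the log2 fold change of 0.37 (SE 0.18) was 0.16 (SE 0.15) without it. Col18a1, whose C-terminal piece is endostatin, stood at 19.8, 15.8, 22.5, 20.2 and 19.4 CPM against 20.2, 24.3, 21.5 and 17.2 CPM (log2 fold change 0.09, SE 0.13).

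Col7a1 and Col17a1 belong to the attachment of epidermis to dermis, Col7a1 as the anchoring fibril and Col17a1 as a transmembrane protein of hemidesmosomes. Col17a1 stood at 0.363, 6.63, 0.427, 0.454 and 0.449 CPM in controls and at 2.16, 4.84, 0.521 and 0.371 CPM in knockouts. The 3 libraries at 2.16 CPM or more were those with most keratinocyte markers, in the same order, control 2, knockout 2 and knockout 1. Krt5, a keratin of basal epidermis, was at 26.2, 19.5 and 7.21 CPM in these 3 and no higher than 0.106 CPM in the remaining 6. Col7a1 was also highest in control 2 and knockout 2 (18.2 and 15.4 CPM), but stood at 9.24 CPM in knockout 1, within the 6.17 to 11.6 CPM of the remaining libraries. Neither gene differed between groups beyond its spread, with log2 fold changes of 0.25 (SE 0.99) and 0.18 (SE 0.27), and that of Col17a1 was -0.70 (SE 1.09) without knockout 2.

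**Figure D4:**
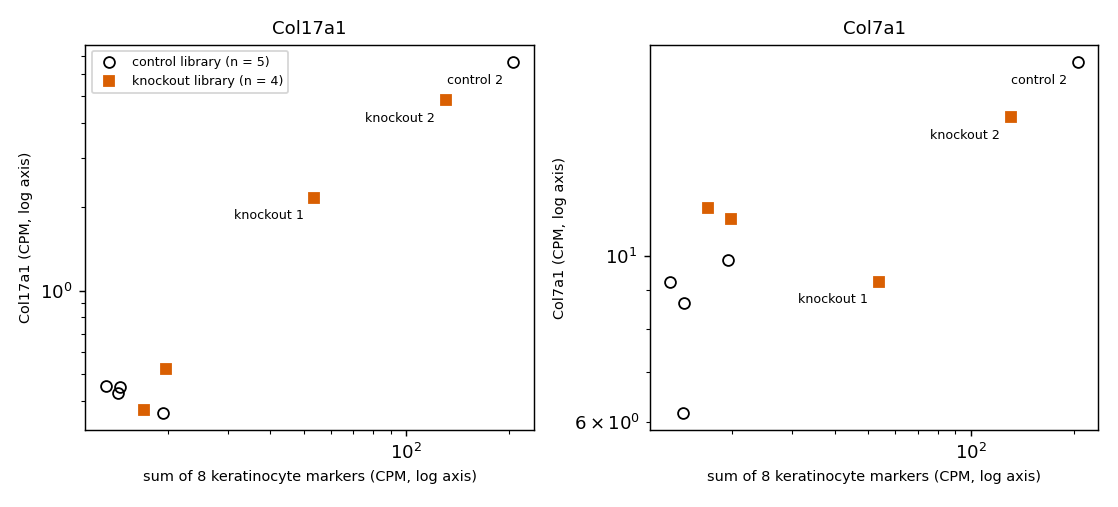
Level of Col17a1 (left) and Col7a1 (right) against the sum of 8 keratinocyte markers in each library, both axes on log scales (open circles: 5 controls; orange squares: 4 knockouts). Col17a1 is at 2.16 CPM or more in the 3 libraries with most keratinocyte transcripts and does not exceed 0.521 CPM in the remaining 6.

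Among the 23 collagens of other types, 19 were tested, 10 had fold changes above 0 and the median was 0.04, or -0.08 without knockout 2 (8 of 20) and 0.08 without control 1 (12 of 19). Type VI collagen, whose human genes are mutated in congenital muscle diseases, was the main contributor through Col6a1, Col6a2 and Col6a3. Col6a1 stood at 162, 147, 135, 135 and 145 CPM in controls and at 157, 193, 163 and 129 CPM in knockouts, with a log2 fold change of 0.15 (SE 0.12). Col6a2 stood at 147, 137, 125, 125 and 140 CPM against 155, 184, 177 and 125 CPM, with knockouts 1 to 3 above every control, and its log2 fold change was 0.25 (SE 0.12; 0.18 without knockout 2). Col6a3 stood at 93.2, 72.6, 67.5, 80.3 and 55.8 CPM against 95.9, 121, 76.8 and 64.9 CPM, where knockouts 1 and 2 lay above every control, and its log2 fold change was 0.28 (SE 0.19; 0.10 without knockout 2). Of these 3 chains, Col6a1 and Col6a2 were steadier than most collagens. Over all 9 libraries Col6a1 varied 1.49-fold and Col6a2 1.47-fold from lowest to highest, against 3.20-fold for Col1a1 and 5.11-fold for Col11a1.

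The later-found type VI chains were scarce. Col6a6 was highest in knockout 2, at 6.19 CPM, and lowest in control 5. Col6a5 was highest in control 5 and knockout 4 (2.34 and 3.13 CPM), at 0.463 to 1.38 CPM elsewhere, and these were the libraries in which type I collagen was lowest in their groups. The sequences of Col6a5 and Col6a6 overlap: 3.49% of the 50-base words of Col6a5 occur in Col6a6, and 3.88% of those of Col6a6 occur in Col6a5 or other genes. Col6a4 had 0 to 5 counts per library and was not tested.

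FACIT collagens decorate the surface of fibrils or mark tissue borders. Col22a1, a marker of the myotendinous junction where fibres attach to tendon, stood at 62.9, 48.7, 46.9, 55.0 and 40.7 CPM in controls and at 45.8, 53.1, 43.8 and 35.1 CPM in knockouts. The groups overlapped, with knockout 4 below every control, and the log2 fold change was -0.19 (SE 0.15; -0.29 without knockout 2). Col12a1, found on fibrils of tendon and muscle fascia, stood at 51.7, 18.9, 31.0, 30.1 and 17.8 CPM against 36.4, 30.6, 24.2 and 11.6 CPM, with a log2 fold change of -0.21 (SE 0.36), but 0.08 without control 1, 0.03 without knockout 4, 0.03 without control 5 and knockouts 3 and 4, and 0.10 with the length slope as covariate. Col14a1, its relative, was far steadier, at 29.2, 27.7, 25.1, 28.8 and 24.6 CPM against 21.6, 35.5, 30.0 and 25.3 CPM, with a log2 fold change of 0.05 (SE 0.14), and -0.08 without knockout 2. Of the less abundant FACIT chains, Col16a1 lay between 12.9 and 24.1 CPM and Col20a1 between 5.63 and 8.79 CPM. Col19a1 stood at 2.49, 1.25, 2.10, 2.68 and 1.59 CPM in controls 1 to 5 against 1.60, 1.85, 1.52 and 1.802 CPM in knockouts 1 to 4, all 4 within the control range (log2 fold change -0.26, SE 0.24). The type IX chains Col9a1 and Col9a2, partners of type II collagen in cartilage, lay between 1.05 and 3.99 CPM and between 0.227 and 0.530 CPM. Col9a3 had 2 to 10 counts per library and was not tested.

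The short-chain collagens Col8a1 and Col8a2, which build the matrix of vessel walls and of the corneal endothelium, lay between 6.55 and 14.3 CPM and between 3.07 and 12.2 CPM. Col10a1, made by hypertrophic cartilage, had 0 to 3 counts per library. Of the transmembrane collagens, Col23a1 lay between 4.54 and 6.39 CPM and Col13a1, which helps to mature the neuromuscular synapse, between 1.38 and 2.04 CPM (log2 fold change -0.05, SE 0.19). Col25a1, which motor axons need to enter muscle, had 3 to 15 counts per library and did not pass the filter. Col28a1 lay between 0.890 and 2.09 CPM. In the fit without a filter the 4 untested genes had edgeR adjusted p-values of 0.946 to 0.982.

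Summed over all 43 genes, collagen took 0.366%, 0.265%, 0.324%, 0.266% and 0.222% of all counts in controls, in the order of their numbers, and 0.378%, 0.485%, 0.355% and 0.203% in knockouts. Exact 95% binomial intervals, which cover counting error only, were narrow beside these differences, the widest being 0.482% to 0.487% in knockout 2. The means were 0.289% ± 0.0564 (SD, n = 5) and 0.355% ± 0.116 (n = 4), or 0.312% ± 0.095 without knockout 2, and the knockouts held both the highest and the lowest library. The fibrillar share of collagen counts was 69.3%, 65.2%, 71.5%, 63.9% and 63.0% in controls and 70.8%, 71.2%, 71.5% and 59.9% in knockouts, so knockout 4 stood apart from the other 3. Its basement membrane share was 18.9% against 13.3% to 13.7% in the other knockouts and 12.5% to 16.1% in controls.

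**Figure D5:**
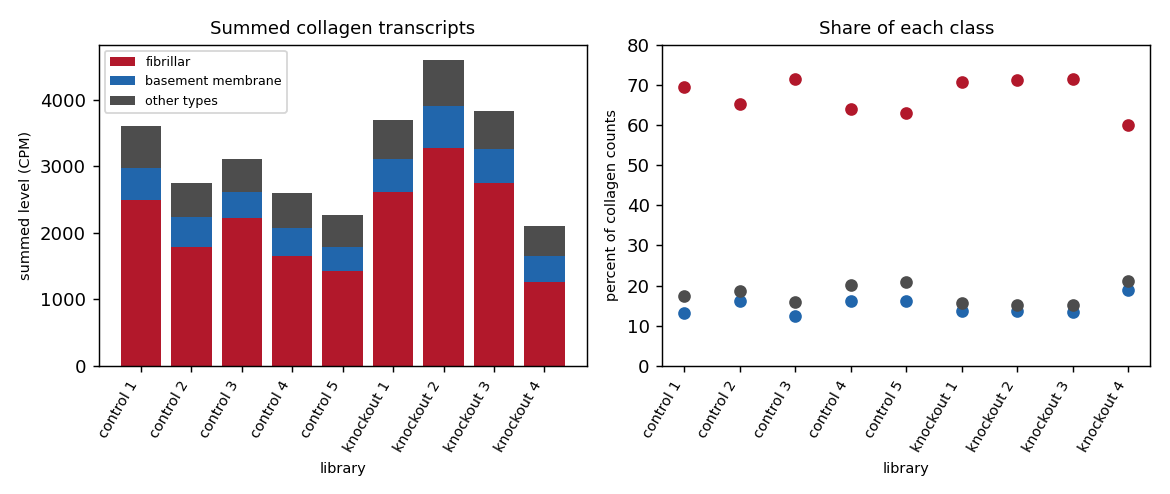
Summed level of fibrillar, basement membrane and other collagens in CPM (left, stacked bars) and each class as a percent of all collagen counts (right) in each of the 9 libraries. Knockout 2 has the tallest bar and knockout 4 the shortest, and the fibrillar share is 59.9% in knockout 4 and 63.0% to 71.5% elsewhere.

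Markers of collagen-making cells moved only in part with these levels. The sum of 10 fibroblast markers was 2699 to 3111 CPM in controls and 2667 to 3050 CPM in knockouts, 2980 CPM in knockout 2 and 2667 CPM, the lowest of all libraries, in knockout 4. None of the 10 was at 0. Most of each sum was Gsn, at 1714 CPM in knockout 4 and up to 2027 CPM in control 5, so the sum mainly shows that gene. Platelet-derived growth factor receptor alpha (Pdgfra), the defining receptor of muscle fibroblasts, stood at 36.8, 35.8, 39.3, 32.6 and 30.3 CPM in controls and 40.1, 43.9, 36.7 and 41.7 CPM in knockouts (log2 fold change 0.22, SE 0.10). That was the largest fold change of the 10 fibroblast markers, of which 8 were above 0 (49.4% of all tested genes), with a median of 0.08. Dcn, Gsn and Fbln1 were at 0.02, -0.02 and -0.13. Without knockout 2, 6 of the 10 were above 0 (49.5% of all tested genes), with a median of 0.08. In that fit Pdgfra was at 0.18, and Dcn and Lum were at -0.02 and -0.08. The sum of 7 tendon markers was 769 CPM in knockout 4 and 982 to 1957 CPM in the other 8 libraries. Egr1, 1 of the 7, ranged from 52.2 CPM in knockout 3 to 757 CPM in control 1 (log2 fold change -1.38, SE 0.50), so the top of that range rests in part on it. Knockout 4 was lowest for 5 of the 7, among them Fmod at 234 CPM and Tnmd at 15.2 CPM (389 to 678 CPM and 22.6 to 35.4 CPM elsewhere), but not for Scx, a tendon transcription factor (9.01 CPM, against 7.03 to 16.2 CPM elsewhere), or Egr1. The part of tendon in these levels was not tested. For 6 endothelial markers the sum was 246.1 to 265.8 CPM in controls and 288.3, 290.6, 267.5 and 262.5 CPM in knockouts 1 to 4. All 6 had fold changes above 0 (median 0.12), also without knockout 2 (median 0.11). Of 6 mural cell markers 3 were above 0 and 3 below (median -0.02), and 2 were above 0 without knockout 2. The part of vessels in the collagen levels was not tested either.

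None of the genes that modify, process or bind collagen passed the same test. In this fit 0 of 16 tested enzymes and chaperones of chain synthesis were called (0% of all tested genes), with 14 above 0 and a median of 0.07. Without knockout 2, 12 of 16 were above 0 and the median was 0.08. Of all tested genes 49.4% were above 0, and 49.5% without knockout 2, which are the shares to set beside this and each later list. The smallest p-values were those of Leprel1 (a prolyl 3-hydroxylase), at 8.02 ± 2.54 CPM (SD, n = 5) among controls and 4.76 ± 2.16 CPM (n = 4) among knockouts (log2 fold change -0.75, SE 0.31), the chaperone Fkbp10 (0.27, SE 0.13) and the lysyl hydroxylase Plod3 (0.19, SE 0.11). Among 13 genes of propeptide cleavage and cross-linking, 9 were above 0 (median 0.10; 7 of 13 and 0.03 without knockout 2), with the smallest p-values for the lysyl oxidase relative Loxl1 (0.34, SE 0.16), the procollagen C-proteinase enhancer Pcolce (0.21, SE 0.14) and the C-proteinase Bmp1 (0.12, SE 0.10). Of 19 fibril partners, 8 were above 0 (median -0.01), and 5 without knockout 2 (median -0.11). Eln, the elastin gene, averaged 40.6 ± 10.5 CPM among controls and 66.7 ± 20.5 CPM among knockouts (log2 fold change 0.72, SE 0.22; 0.74 without knockout 2), the proteoglycan Prelp was at -0.39 (SE 0.18), and Sparc, which binds collagen in the cell and in the matrix, at 0.25 (SE 0.20).

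Of 12 basement membrane partners 7 were above 0, with a median of 0.01, but 2 of 12 without knockout 2, with a median of -0.06. The laminin chain Lama2, the peroxidase Pxdn that cross-links type IV collagen and the heparan sulphate proteoglycan Agrn stood at -0.20 (SE 0.19), 0.13 (SE 0.14) and 0.11 (SE 0.14). Of 12 collagen receptors 2 were above 0 (median -0.08), and 1 without knockout 2 (median -0.20), with the integrin chain Itga10 at -0.58 (SE 0.26), the scavenger receptor Cd36 at -0.24 (SE 0.12) and the discoidin receptor Ddr1 at -0.17 (SE 0.14). Among 14 proteases of collagen breakdown and their inhibitors, 8 were above 0 (median 0.02), and 7 without knockout 2 (median 0.02). Timp3 was at -0.29 (SE 0.15), Mmp9 at 0.64 (SE 0.34) and Mmp14 at 0.39 (SE 0.26, and 0.05 without knockout 2). Of 18 genes of transforming growth factor beta signalling, a main inducer of collagen genes, 6 were above 0 and the median was -0.10 (4 and -0.11 without knockout 2). Its target Ctgf stood at 152.5 to 324.5 CPM in controls against 119.9 to 222.7 CPM in knockouts (log2 fold change -0.59, SE 0.23), and the latent binding protein Ltbp2 was at -1.06 (SE 0.39). At an unadjusted p under 0.05, 4 of the 18 members of this list were lower (1.8% of all tested genes) and 0 higher (1.38%), and none passed after adjustment over all genes (smallest edgeR adjusted p = 0.967).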

How the data were processed

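The authors deposited 1 table of unnormalized read counts, with a row for each gene symbol and a column for each library. HTSeq 0.6.1, TopHat, Bowtie 0.12.7 and bcl2fastq 1.8.4 are named, with the mm9 build, per the submitters' processing notes; per the labels' protocols, RNA of integrity number 6.7 or more was amplified with a NuGEN kit before library preparation. For annotation and strand, the setting is not given in the sources used here; overlapping and antisense genes may therefore share reads.

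The test was that of edgeR 4.0.16 under R 4.3.3 (filterByExpr with a minimum count of 10, which kept 13198 genes and 39 of 43 collagens; TMM; robust quasi-likelihood test, knockout against control, no other term; Benjamini-Hochberg over all tested genes, threshold 0.05). Each standard error (SE) was the log2 fold change over the square root of its F statistic. DESeq2 1.42.0 and limma 3.58.1 (voom with quality weights, which give each library its own weight, called limma-voom here) were alternatives, on the same filtered genes. The steps were tested on simulated data. Lengths and 50-base words came from GENCODE M21 transcripts, and all 43 members had a length. Libraries of a group differed by more than sampling noise, with chi-square values of 17.5 to 96.8 per degree of freedom.

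The members, classes, gene lists and alternatives were chosen with earlier results of these data known, so list counts are descriptions. Values in every library are given for members of at least 20 CPM on average and for the 5 of smallest p in each direction, and fold changes in each pathway list for the 3 of smallest p (1 of these is not reported here); values of other members, markers and left-out libraries were chosen after they were seen. All 194 listed pathway and marker symbols were found, 6 through synonyms. Protein sequences and genome sequence beyond the promoter windows were not used here, and the windows of Col4a1 and Col4a2, which lie in each other's first exons, are not printed.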

Additional observations from a re-analysis of the deposited data

Results flagged for a closer look

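Levels and shares were searched within each group for a library far from the others, in 56 sets, and chance flags about 1 in 20. Col5a3 stood at 65.4 CPM in control 2, with the other controls between 27.4 and 38.0 CPM. In knockout 4 the fibrillar share of collagen counts was 59.9%, the basement membrane share 18.9% and the share of other types 21.2%, each far from the other 3 knockouts (70.8% to 71.5%, 13.3% to 13.7% and 15.1% to 15.6%). These 3 shares add to the whole and are not independent of each other.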

How the results depend on the processing

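No alternative called a collagen gene. Over all genes DESeq2 called 7 lower and the fit with the replicate block called 1 lower, against 0 by edgeR, and neither was a collagen. Correlations of same-numbered deviations were 0.47, 0.01, 0.10 and -0.08 for numbers 1 to 4. Control 1 was the best match of knockouts 1 and 2, and control 5 that of knockouts 3 and 4. The label numbers within each group thus matched for number 1 only, and so few values cannot say whether libraries shared a batch. The labels also carry another number, prefixed GP, that runs across both groups. Its order was not tested, and the labels do not say what it stands for. With the block the collagen median was 0.06. The SD between single libraries was 0.145 for basement membrane and 0.346 for fibrillar chains, which is not the error of a difference between groups. Set beside it as a description only, class medians were smaller in size except that of the basement membrane class, 0.18. It was 0.033 without knockout 2 and, in an alternative chosen after seeing the data, -0.083 without control 2 and knockouts 1 and 2. The medians of 0.18 and 0.033 were the values of Col7a1 alone, and that of the alternative was the value of Col18a1. In that alternative Col1a2 was at -0.067, Col18a1 at -0.083, Col5a2 at -0.31 and Col6a3 at -0.067, all above 0 with every library. Signs also turned for Col5a2 with the block (-0.071) and without controls 4 and 5 (-0.029), for Col14a1 with limma-voom (-0.022), and, with the length slope as covariate, for Col4a3 (0.0028), Col11a2 (0.10) and Col12a1 (0.10); Col12a1 was at 0.03 without control 5 and knockouts 3 and 4. With 1 library left out, Col5a2 ranged from -0.15 to 0.18, Col11a2 from -0.22 to 0.13, Col12a1 from -0.43 to 0.076, Col14a1 from -0.081 to 0.16, and the medians of the basement membrane class from 0.033 to 0.21, of the fibrillar class from 0.03 to 0.30 and of other types from -0.08 to 0.08. The causes were not tested. Collagen genes above 0 numbered 21 of 39 with limma-voom and 31 of 39 with the length covariate. Genes under about 1 CPM rest on few counts.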
